A study of Mus musculus with 2 samples.

Results

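Uroplakins are the membrane proteins of the urothelium, and the 6 mouse genes of the family (Upk1a, Upk1b, Upk2, Upk3a, Upk3b and Upk3bl) were examined in whole ureters at E14.5. They were found by gene name, or by the current symbol of the probe's transcript accession, which gave 7 of the 39429 probes on the array. Upk3bl has 2 probes and each other gene has 1. All 6 genes were among the 20104 that could be tested. Every probe of the family had most of its spots well above background in all 4 channels.

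The ureters came from NMRI mouse embryos. The knockout embryos carried a Pax2-cre/+ allele with 2 floxed copies of Smad4, written Smad4(fl/fl), and are called Smad4cKO (UE). Pax2-cre/+ is the series' wording, and the sample labels write Pax-cre/+. The controls are labelled Smad4(fl/?), so at least 1 floxed copy was present in both groups, the other control allele is not stated, and no cre is listed for them. The labels name neither the cells that the cre recombined nor the number of embryos in a sample. On each of 2 two-colour arrays, knockout RNA was hybridised together with control RNA of the same sex. Array 1 held female ureters with the knockout in Cy3, and array 2 held male ureters with the knockout in Cy5. Sex, dye orientation and replicate therefore changed together and cannot be told apart. Nothing states that the arrays came from separate litters. They held ureters of different sex, so the spread between them mixes differences between embryos with technical ones. The p-values rest on this spread, drawn towards that of all genes tested, and do not measure the spread between litters.

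In the urothelium, uroplakin proteins assemble into rigid plaques that cover the luminal face of the superficial cells and form a permeability barrier. UPK1A and UPK1B are tetraspanins. UPK1A pairs with UPK2, and UPK1B pairs with UPK3A or UPK3B, before the pairs leave the endoplasmic reticulum. In mice, loss of Upk2 or Upk3a disrupts the plaques and is associated with urinary reflux. Upk3b is also used as a marker of mesothelium.

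Each probe on the array is a DNA oligomer of 60 bases, and the measured value belongs to the stretch of transcript it binds. The Upk3a probe is shown whole because its gene gave the highest mean ratio of the family and because its mm9 position, chr15:84851819-84852720 on the + strand, covers 902 bases of genome for 60 bases of probe, that is, it lies across a splice junction. For Upk1a, Upk2 and Upk3bl the 30 bases around the polyadenylation signal are shown, with the signal AATAAA in capitals, a sequence found near the 3′ end of transcripts. The stretches are from chr7:31388111-31388140 (− strand), chr9:44260822-44260851 (− strand) and chr5:136540144-136540173 (+ strand), all mm9. They run 5′ to 3′.
Upk3a: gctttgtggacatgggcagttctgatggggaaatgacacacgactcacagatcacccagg
Upk1a: gttggctggacacccAATAAAtactggctg
Upk2: ctcttaactgtacttaattctcacAATAAA
Upk3bl: atctttatcagaAATAAAtgccccgaatac
The stretch printed for Upk3bl is in both of its probes, which start 5 bases apart and share 55 of their 60 bases, so they are nearly the same measurement. The probes of Upk1b (chr16:38773859-38773918, − strand) and Upk3b (chr5:136520522-136520581, + strand) hold no AATAAA. Upk3b and Upk3bl lie close together on chromosome 5, with 19543 bases of mm9 between their nearest probes, and the other 4 genes are on chromosomes 7, 16, 9 and 15.

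All 6 uroplakin genes were higher in the knockout channel than in the control channel on both arrays, and 5 of the 6 passed the test. The test was limma on the log2 ratio of knockout over control of each array, with Benjamini-Hochberg adjustment over 20104 genes and a threshold of 0.05. Of all genes tested, 0.229% passed in that direction (46 genes) and 0.328% in either (66 genes). The median mean log2 ratio of the 6 genes was 1.13, against -0.00438 over all genes tested. Ratios follow the dyes in the labels. The authors' deposited table gives every uroplakin probe a negative signed fold, for example -2.72 and -3.31 for Upk3a on arrays 1 and 2. Its titles name the knockout first, so read in that order it has the opposite direction, with uroplakins lower in the knockout, and the files do not settle which of these the authors intended. Smad4, the targeted gene, did not settle it, though both of its probes read lower in the knockout channel on both arrays. Its brighter probe had log2 levels of 14.28 and 14.44 in knockout and 14.86 and 14.52 in control on arrays 1 and 2, and its second probe 12.67 and 12.48 in knockout and 12.76 and 12.81 in control. Smad4 did not pass (mean log2 ratio -0.33 ± 0.36, SD, n = 2, adjusted p = 1.00), and whether a probe lies in the deleted part was not determined. RNA came from whole ureters, so fewer cells of a type and less RNA per cell cannot be told apart.

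The tetraspanin members, which pair with the partner uroplakins, gave large and similar ratios. Upk1a had log2 levels of 12.55 and 12.49 in knockout ureters on arrays 1 and 2, against 11.35 and 10.96 in control ureters. The 2 knockout levels lay close together and well above both control levels. Its log2 ratio was 1.20 on array 1 and 1.53 on array 2, a 2.57-fold higher level in knockout on average (1.36 ± 0.23, SD, n = 2, adjusted p = 0.00142). Upk1b had levels of 11.08 and 10.93 in knockout, against 9.87 and 9.53 in control, again without overlap. Its ratios were 1.21 and 1.40, or 2.47-fold (1.31 ± 0.13, adjusted p = 0.00139). The 95% intervals from limma, 1.08 to 1.65 for Upk1a and 1.03 to 1.58 for Upk1b, cover each other's means.

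Among the partner proteins, Upk3a, the partner of UPK1B, had the highest mean ratio of the 6 members. Its levels were 12.55 and 12.47 in knockout ureters, against 11.12 and 10.79 in control ureters. All 8 spots on the 2 arrays read at least 1.36 on the log2 ratio scale. The ratio was 1.43 on array 1 and 1.68 on array 2, a 2.94-fold higher level in knockout (1.55 ± 0.18, adjusted p = 0.000882, 95% interval 1.28 to 1.83). Upk2, the partner of UPK1A, was the member that did not pass. Its levels were 9.69 and 10.00 in knockout ureters, against 9.24 and 8.56 in control ureters. The lower knockout level stood 0.45 above the higher control level, the 2 arrays being far apart in control. The ratio was 0.45 on array 1 and 1.45 on array 2, with a mean of 0.95 ± 0.70 (adjusted p = 0.136). The 95% interval from limma was 0.51 to 1.39, and both ratios lie outside it. In limma the variance of a gene is drawn towards that of all genes, so this interval understates the spread of Upk2 between the arrays. On array 2 alone Upk2 lay between Upk1a and Upk1b, and on array 1 it was the lowest of the 6.

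**Figure D1:**
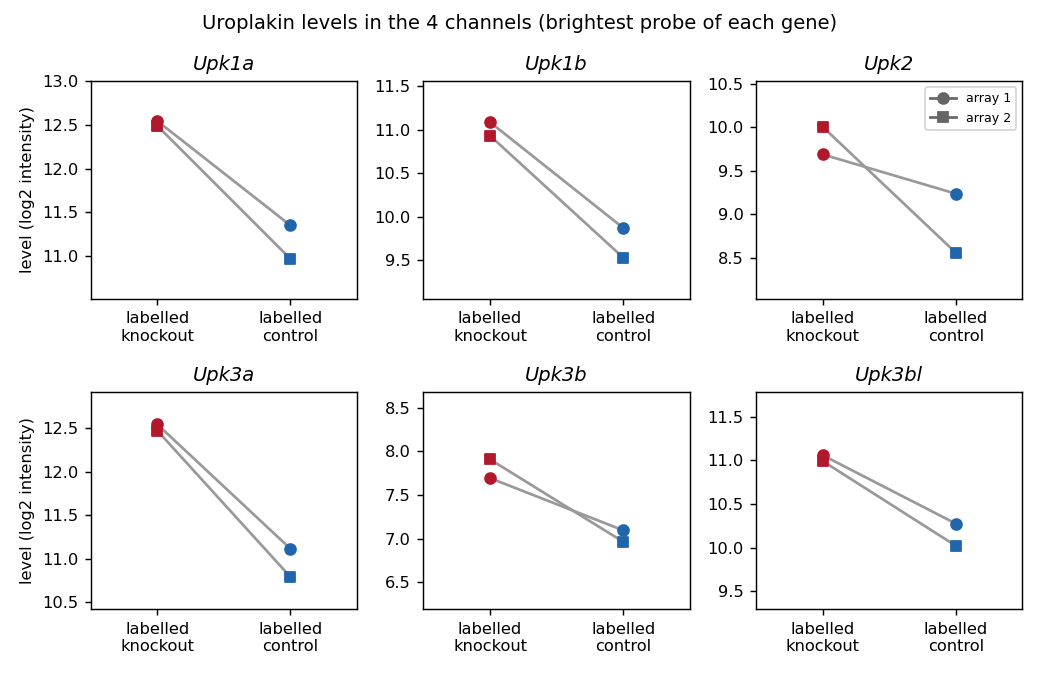
Levels of the 6 uroplakin genes as normalised log2 intensity (y axis) in the labelled knockout (left) and labelled control (right) channels, with the 2 channels of an array joined by a line. Each panel spans the same number of log2 units; in every gene both knockout points lie above both control points, and the lines of Upk2 differ most in slope, with ratios of 0.45 on array 1 and 1.45 on array 2.

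The remaining 2 genes, neighbours on chromosome 5, gave smaller ratios in this processing. Upk3bl, a relative of Upk3b, had levels of 11.06 and 10.99 in knockout, against 10.27 and 10.02 in control, on its brighter probe. The ratios were 0.79 and 0.97, a 1.84-fold higher level in knockout (0.88 ± 0.13, adjusted p = 0.0152). Its second probe read 0.79 on array 1 and 1.01 on array 2. Upk3b had levels of 7.69 and 7.91 in knockout, against 7.09 and 6.96 in control. These were dim: the Upk3b spots were 5.53 and 3.50 times the local background in knockout and 1.84 and 2.67 times in control, whereas the Upk3a spots were 212 and 87.9 times in knockout and 35.1 and 57.1 times in control. Knockout was in Cy3 on array 1 and in Cy5 on array 2, and the background differed between the dyes. The Upk3b ratio was 0.60 and 0.95, or 1.71-fold (0.77 ± 0.24, adjusted p = 0.0477). It did not pass with the 4 channels taken as unpaired samples (adjusted p = 0.0825), nor with each probe fitted as its own feature (0.0574).

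For Upk3b the size of the ratio depended on the background step. It was 0.77 as reported, 1.13 with a normexp offset of 0, 1.57 with the processed signals of the scanner software and 1.60 with the authors' deposited table, turned to knockout over control. With the processed signals Upk3b (1.57) stood beside Upk3a (1.61), above Upk1a (1.41) and Upk1b (1.40). An offset adds the same amount to both channels, which draws the ratio of a dim probe towards 0. The order of Upk3b among the 6 genes is therefore not fixed by these data. The other members moved little: over 11 alternative settings Upk3a ran from 1.55 to 1.61, Upk1a from 1.36 to 1.41, Upk1b from 1.31 to 1.40, Upk2 from 0.95 to 1.10 and Upk3bl from 0.88 to 0.93. Settings of the filter, the variance prior and the pairing repeat the reported ratios, so these ranges rest on the other settings. The mean over probes could move only Upk3bl.

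**Figure D2:**
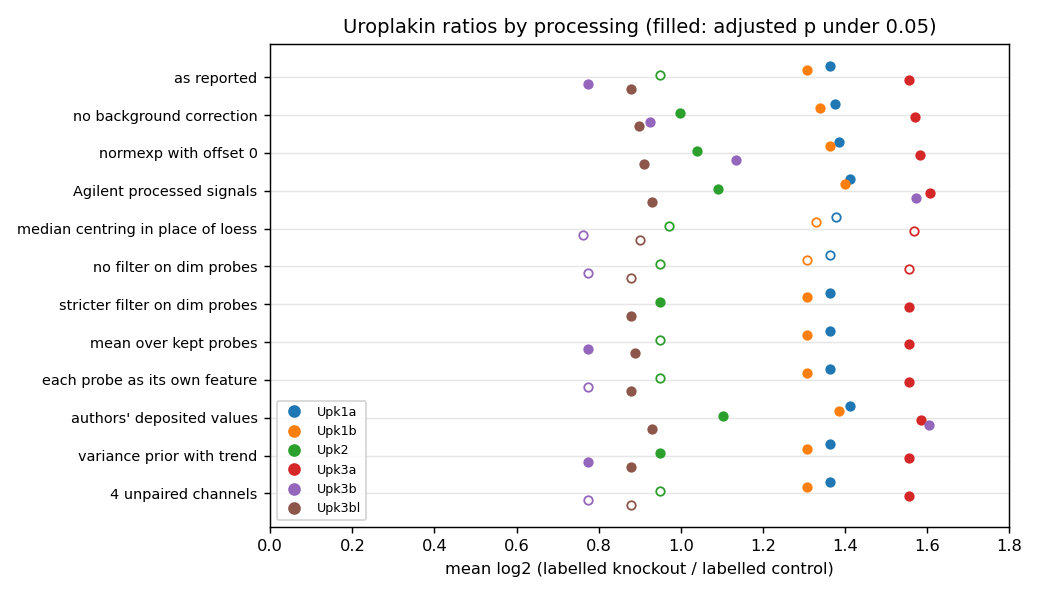
Mean log2 ratio of knockout over control (x axis) of the 6 genes as reported and under 11 alternative settings (y axis), with filled points where the adjusted p was under 0.05. Every point lies above 0, Upk3b spans 0.76 to 1.60, and all points are open with median centring and with no filter on dim probes.

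Whether the calls were made depended on the settings, also on those that kept the ratios the same. All 6 genes passed with no background correction, an offset of 0, the processed signals, the deposited values and a variance prior that follows brightness, and 5 passed with a stricter filter, under which Upk3b was not tested, and with the mean over probes. None passed with median centring in place of loess (6 at an unadjusted p under 0.05), or with dim probes kept (6 likewise), settings in which 0 of all genes passed. With the 4 channels unpaired, that is, with no block for the array, 3 of the 6 passed: Upk1a (adjusted p = 0.0170), Upk1b (0.0178) and Upk3a (0.00943). Upk3bl (0.0541) and Upk2 (0.325) did not.

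Ignoring the pairing on an array, the knockout and control levels of all 6 members were apart, that is, both knockout levels were above both control levels. The same held for 13.9% of all genes tested. By size, 5 of the 6 members were at least 1.5-fold higher in knockout on each array, Upk2 being the exception, against 0.264% of all genes. Above 0 on both arrays were 6 of 6 members, against 21.7% of all genes. On array 1 the members ran from 0.45 to 1.43 with a median of 0.99, and on array 2 from 0.95 to 1.68 with a median of 1.42. The central 95% of all genes lay between -0.54 and 0.40 on array 1 and between -0.28 and 0.39 on array 2.

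**Figure D3:**
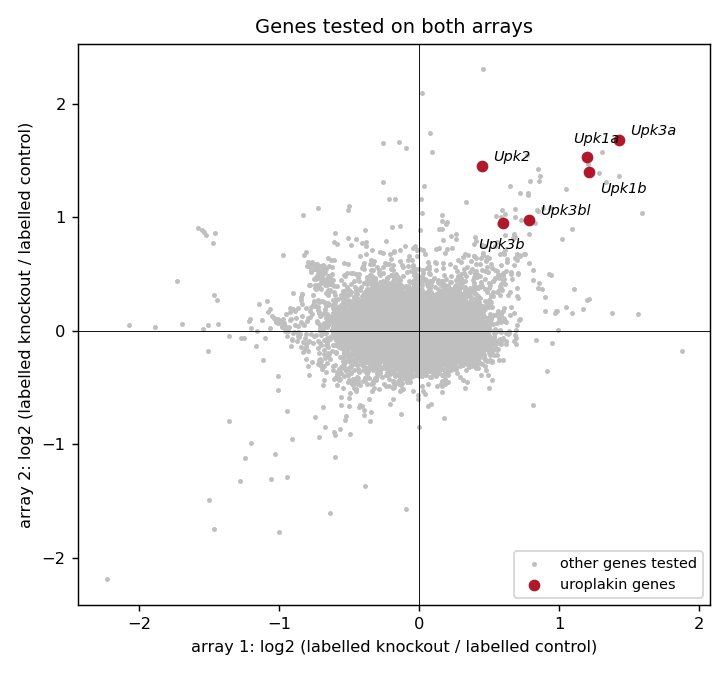
Log2 ratio of knockout over control on array 1 (x axis) against array 2 (y axis), with 1 point for each of the 20104 genes tested and the uroplakin genes in red. The 6 genes lie in the upper right, with Upk3a at 1.43 and 1.68 and Upk2 to the left of the others at 0.45 and 1.45.

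The ratios of all 6 members were larger on array 2 than on array 1. Over all genes tested, 50.7% were higher on array 2. The SD between the arrays was smallest for Upk1b and Upk3bl, at 0.13 each, and largest for Upk2, at 0.70. For every one of the 7 probes the lowest spot on array 2 read above the highest spot on array 1. Upk1b, for example, ran from 1.15 to 1.30 over 4 spots on array 1 and from 1.34 to 1.46 over 4 spots on array 2, and Upk2 from 0.37 to 0.54 and from 1.33 to 1.53. All 54 uroplakin spots that were used, of 28 on each array, had a ratio above 0. Spots of a probe share the same RNA and are technical repeats. The SD between the spots of a probe was 0.04 to 0.08 on array 1 and 0.01 to 0.10 on array 2. The cause of the difference between the arrays was not tested.

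**Figure D4:**
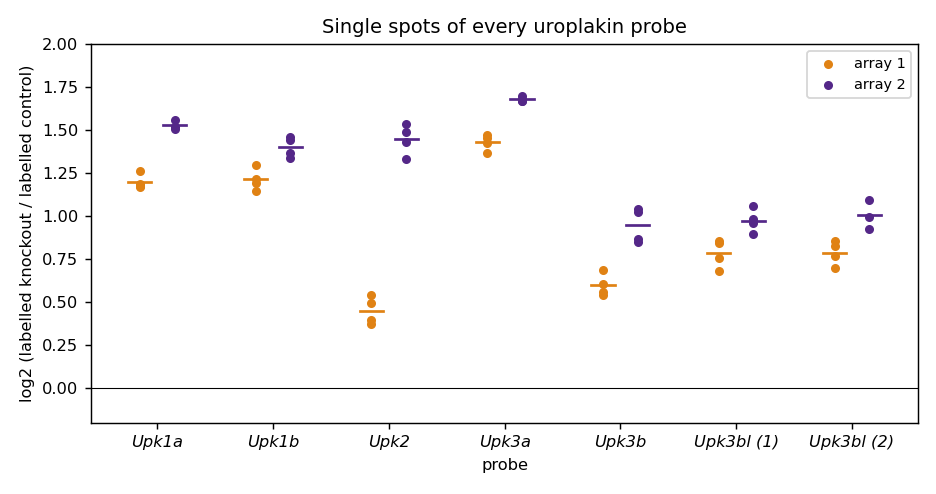
Log2 ratio of knockout over control (y axis) of every spot of the 7 uroplakin probes (x axis), with array 1 and array 2 side by side and a short line at the mean of the spots. All spots are above 0, those of array 2 lie above those of array 1 for each probe, and the 2 overlapping Upk3bl probes read nearly alike at 0.79 on array 1 and 0.97 and 1.01 on array 2.

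Genes of neighbouring functions were set beside the family. Of 11 measured genes for the transport of uroplakin vesicles to the surface, Rab27b, a small GTPase of these vesicles, rose 1.99-fold in knockout (log2 ratios 1.09 and 0.90, adjusted p = 0.00859), and 10 did not pass. Mal, a membrane protein of the same route, read 0.81 and 0.53 (adjusted p = 0.0827), Sytl2, which encodes a RAB27 effector, 0.41 and 0.27, and Mal2 -0.53 and -0.36. Mal passed in 7 of 11 alternative settings, so that 2 genes of the list then passed. No gene of it passed with median centring or with dim probes kept. On both arrays 9 of the 11 read above 0 and 1 read below, against 21.7% of all genes tested above 0. In limma 5 were at an unadjusted p under 0.05, against 914 of all 20104 genes tested. The list median was 0.17. Of 13 genes listed as urothelial transcription factors, Grhl3 (2.13-fold, 0.86 and 1.32, adjusted p = 0.0101) and the nuclear receptor gene Pparg (1.61-fold, 0.72 and 0.66, adjusted p = 0.04995) rose and 11 did not pass, among them Klf5 (0.30 and 0.45) and Tbx2 (0.17 and 0.27). RNA of whole ureters does not show which cells gave the signal of these genes. With unpaired channels neither Grhl3 (0.218) nor Pparg (0.0666) passed, and 0 genes of the list passed with median centring or with dim probes kept. On both arrays 7 of the 13 read above 0 and 2 below, and the list median was 0.10. Over all genes tested, 21.7% read above 0 on both arrays. Of 9 urothelial keratins 0 passed in limma, with 3 at an unadjusted p under 0.05, against 914 of all 20104 genes tested. On both arrays 7 of the 9 read above 0 and 0 read below. Krt20, a keratin of superficial cells, read 0.70 and 0.62 (adjusted p = 0.0646) and passed in 7 of 11 alternative settings. Krt19 read 0.56 and 0.49 and Krt13 0.35 and 0.21. The basal keratin Krt5 averaged 0.27 ± 0.39, from -0.002 on array 1 and 0.54 on array 2. Its probe was dim, with levels of 7.43 and 7.88 in knockout and 7.43 and 7.33 in control.

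The tetraspanins are the protein family to which UPK1A and UPK1B belong. Of 27 other measured tetraspanin genes 0 passed (3 at an unadjusted p under 0.05), with a median of -0.07 and a range from -0.36 (Tspan1) to 0.46 (Tspan8). On both arrays 10 of them were above 0 and 9 were below, and 21.7% of all genes tested were above 0 on both. Tspan18 read -0.31 and Tspan7 -0.26.

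**Figure D5:**
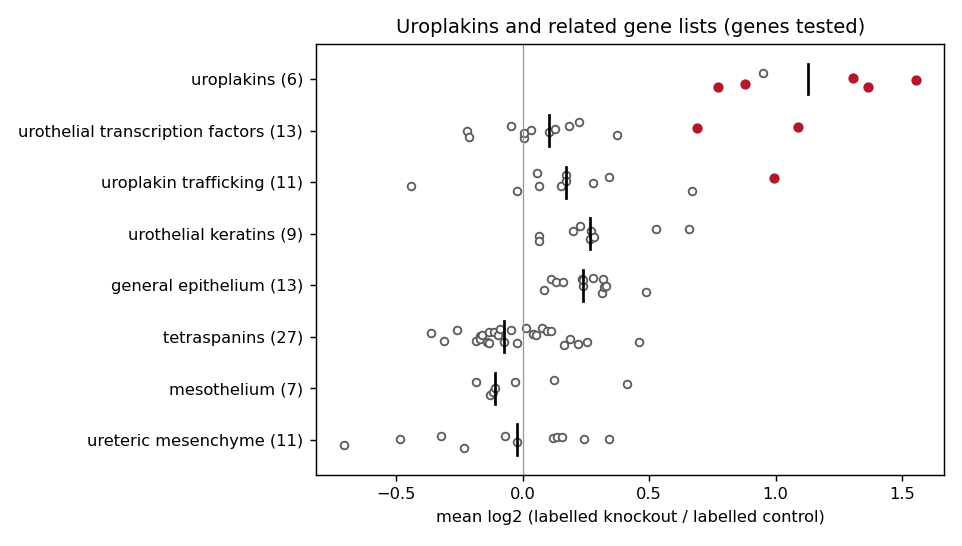
Mean log2 ratio of knockout over control (x axis) of single genes in the uroplakin family and in 7 lists (y axis, with the number of genes tested), with filled points for genes that passed the test and a vertical bar at the list median. The uroplakin median of 1.13 lies above the medians of the lists, which run from -0.11 (mesothelium) to 0.27 (urothelial keratins).

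General epithelial markers were read beside the uroplakins. All 13 had log2 ratios above 0 on both arrays, against 21.7% of all genes tested. Their median was 0.24 and their range 0.09 to 0.49. In limma 0 passed, with 6 at an unadjusted p under 0.05, against 914 of all 20104 genes tested. Ap1m2 read 0.42 and 0.23 and the splicing regulator gene Esrp2 0.27 and 0.37. The log2 of the summed level of the 13 markers was 15.68 and 15.43 in knockout, against 15.41 and 15.28 in control, on arrays 1 and 2, differences of 0.27 and 0.15. The 6 uroplakin ratios ran from 0.45 on array 1 and from 0.95 on array 2, and the difference between uroplakins and these markers was not tested. For ureteric mesenchyme the summed level was 18.10 and 18.07 in knockout, against 18.37 and 18.29 in control. That sum is weighted to the brightest genes, such as Col1a1 (16.20 and 16.37 in knockout, 16.81 and 16.72 in control). Of the 11 mesenchymal markers 0 passed (4 at an unadjusted p under 0.05). On both arrays 5 of them read above 0 and 5 below, with a list median of -0.02. The forkhead gene Foxf1 averaged -0.70 ± 0.43 (adjusted p = 0.163) and passed in 4 of 11 alternative settings. Col1a1 read -0.61 and -0.35, Pdgfrb -0.56 and -0.09 and Osr1 0.42 and 0.27. All 13 epithelial and all 11 mesenchymal markers were measured, and the part of these differences in the uroplakin result was not tested. Because Upk3b also marks mesothelium, 7 other mesothelial markers were read, and 0 passed (1 at an unadjusted p under 0.05). Their summed level was 13.92 and 14.27 in knockout, against 14.14 and 14.13 in control, with Msln at 0.51 and 0.31, Wt1 at -0.50 and 0.13, Lrrn4 at -0.17 and -0.08 and Gpm6a at 0.23 and 0.02. The last 2 probes were dim. Lrrn4 had levels of 6.85 and 6.88 in knockout and 7.02 and 6.97 in control. Gpm6a had 7.48 and 7.38 in knockout and 7.25 and 7.36 in control. Ratios of dim probes are drawn towards 0, so these say little about mesothelium.

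The genes whose 2 ratios lay nearest to the mean pair of the 6 uroplakins (0.95 on array 1 and 1.33 on array 2) were named by distance over these 2 arrays. Nearest was Grhl3, at a distance of 0.0898 log2 units. Then came S100a14 (1.05 and 1.25), Aldh3b2 (0.85 and 1.43), Cbr2 (0.79 and 1.32), Mir205hg (0.78 and 1.21) and Fa2h, a fatty acid hydroxylase gene (0.78 and 1.20). S100a14 encodes a calcium-binding protein, Aldh3b2 an aldehyde dehydrogenase and Mir205hg the host transcript of a microRNA. They were picked on these ratios, so their test results are no further evidence.

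The chromosomal neighbours of the uroplakins gave smaller ratios. The nearest tested protein-coding gene on each side of every member was taken, after the values of the uroplakins were known and by position alone. There were 10 such genes, from RefSeq gene order (GRCm38.p6), and 0 passed (1, Zbtb32, at an unadjusted p under 0.05). Their mean ratios ran from -0.24 for Bcl9l, beside Upk2, to 0.54 for Zbtb32, beside Upk1a (0.52 and 0.55, adjusted p = 0.182). On the 2 sides of the Upk3b and Upk3bl pair, Dtx2 read -0.06 and -0.13 and Rasa4 0.15 and -0.16.

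Since all 6 genes read higher in knockout, the bases before their starts were searched for shared motifs. RefSeq promoter sequences (GRCm38.p6) were held for 4 of the 6 genes, Upk1a, Upk3a, Upk3b and Upk3bl, and the 250 bases before each start are printed 5′ to 3′ on the strand of the gene. The motifs were AGATAA for GATA factors, AACCGGTT for grainyhead factors, AGGTCA for nuclear receptors, GTCTAGAC for SMAD proteins, TGTTTAC for forkhead factors, GGGCGG for SP factors and TATATA for the basal machinery, searched on both strands, none of them overlapping another here, and matches are in capitals.
Upk1a, chr7:30612735-30612984, − strand: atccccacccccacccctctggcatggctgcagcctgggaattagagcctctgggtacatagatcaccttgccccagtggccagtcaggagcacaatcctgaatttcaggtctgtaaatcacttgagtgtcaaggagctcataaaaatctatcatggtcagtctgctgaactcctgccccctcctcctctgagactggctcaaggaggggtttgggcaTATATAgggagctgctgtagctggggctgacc
Upk3a, chr15:85016891-85017140, + strand: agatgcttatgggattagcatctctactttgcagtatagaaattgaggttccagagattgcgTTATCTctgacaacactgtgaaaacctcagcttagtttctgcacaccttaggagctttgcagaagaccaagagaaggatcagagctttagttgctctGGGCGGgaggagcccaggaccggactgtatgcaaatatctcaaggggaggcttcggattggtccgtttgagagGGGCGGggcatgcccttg
Upk3b, chr5:136038246-136038495, + strand: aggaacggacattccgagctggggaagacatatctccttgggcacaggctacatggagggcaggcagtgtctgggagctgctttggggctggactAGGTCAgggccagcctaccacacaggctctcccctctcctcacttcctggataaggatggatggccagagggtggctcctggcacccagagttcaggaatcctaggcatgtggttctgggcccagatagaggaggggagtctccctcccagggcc
Upk3bl, chr5:136057017-136057266, + strand: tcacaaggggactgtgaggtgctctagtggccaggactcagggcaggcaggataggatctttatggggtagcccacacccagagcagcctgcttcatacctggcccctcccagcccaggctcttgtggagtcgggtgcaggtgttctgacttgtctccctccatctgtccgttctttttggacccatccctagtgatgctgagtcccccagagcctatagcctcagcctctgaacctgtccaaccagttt
No motif was shared by 2 of the 4 windows. Upk1a held TATATA, which starts 32 bases before the gene start and is in 5.25% of 32851 promoter windows of that length. Upk3a held GGGCGG at 91 and at 18 bases (32.7% of windows) and the reverse of AGATAA at 188 bases (9.99%). Upk3b held AGGTCA at 155 bases (14.0%), and Upk3bl held none of the 7. AACCGGTT (0.116% of windows), GTCTAGAC (0.167%) and TGTTTAC (3.17%) were in none of the 4. A match is a run of letters and no measured site, and no match says only that these letters are not in this window.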

How the data were processed

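Total RNA of E14.5 ureters, 150 ng per labelling per the labels, was measured on 2 two-colour Agilent arrays. The deposited scanner files hold intensity per spot and channel and 0/1 marks (other), from Agilent Feature Extraction 10.7.3.1 per the submitters' processing notes. The authors' deposited values are of unit score: signed folds whose scaling is unstated. On a signed log2 scale they correlated at 0.822 and -0.739 with the arrays' red over green processed signals, so by the labelled dyes it runs control over knockout on both arrays.

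Computed here with limma 3.58.1 (R 4.3.3): normexp background correction of mean signals (offset 50), loess within each array, outlier spots left out (3.52% and 3.66%), the 4 spots of a probe averaged, and signs turned to knockout over control. Channel levels add Aquantile scaling between arrays. A probe was kept if 2 or more of its spots passed the scanner's background mark on each array in 1 genotype (26522 of 39429), so a gene could enter through its higher group alone. No uroplakin did. The channels had 66.5% to 69.1% of probes well above background, no spot was saturated, and 2 arrays limit the precision. A gene was its brightest probe. The test set 2 ratios against 0, two-sided, with 1 residual degree of freedom and a prior of 9.21, adjusted over 20104 genes. Only the fit and the adjustment were run on simulated ratios, with spreads drawn from the fitted prior. The earlier steps were not simulated. Each array holds both genotypes, so the comparison is paired by hybridisation. Alternatives are in the closing section.

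Names came from the array files, updated through RefSeq (28328 probes by accession, 3400 by symbol, 243 by older symbol, 7458 unmatched). Probe coordinates (mm9) were read from the scanner files. Members, lists and tests were chosen with earlier results of these data known. Genes named from a list are among the 4 with the largest absolute mean ratio or passed, and the nearest genes are the 6 by Euclidean distance, without predicted or clone names. Figures used matplotlib 3.10.9.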

Additional observations from a re-analysis of the deposited data

How the results depend on the processing

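The direction of every tested uroplakin gene was the same in all 11 alternative settings with a fit and on each array alone. Settings that changed only the filter, the variance prior or the pairing kept the same ratios and could not alter the direction. Only settings of background, signal source or scaling computed all the ratios anew. Of the 6 genes, 5 passed as reported. The count was 0 with median centring and 0 with no filter on dim probes, where all genes passing were 0 and 0 (limma, with 347 of 20104 and 1097 of 29875 genes at an unadjusted p under 0.05). It was 3 with no replicate block (4 unpaired channels), where 26 genes passed in all, and 4 with each probe as its own feature (62). The 66 genes that passed in all became 115 with no background correction, 131 with an offset of 0, 194 with the processed signals, 191 with the authors' deposited values and 156 with a variance prior that follows brightness. The cause was not tested. Among the gene lists, Mal and Krt20 passed in 7 of 11 settings and Foxf1 in 4, none of them as reported. No tetraspanin, mesothelial or general epithelial gene passed in any of the 11. The median uroplakin ratio of 1.13 ranged from 0.99 without replicate 2 to 1.42 without replicate 1, which are values with no test. Low signal over background limits Upk3b, and 2 arrays limit all values.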
